A study of Homo sapiens with 6 samples.

Results

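The direct antiviral restriction factors described here are the 10 genes MX1, MX2, RSAD2, CMPK2, BST2, SAMHD1, EIF2AK2, ADAR, ZC3HAV1 and ISG20. Their rows were found by gene symbol, and each of the 10 had a row among the 29845 genes of the read table. The 10 genes, and the gene lists set beside them below, were chosen with earlier results of these data known. The study transfected A549, an established epithelial line from a human lung cancer, with a plasmid and sequenced the poly(A) RNA of the cells. The control group received the empty plasmid, and the TFAM-OE group received the plasmid with the human TFAM gene fused to a FLAG tag. TFAM is a DNA-binding protein that packages mitochondrial DNA and starts its transcription. The plasmid of both groups also carries a green fluorescent protein, and both groups were transfected with a lipid reagent. Cells were harvested 48 h after transfection, and the libraries were made with a kit that keeps the strand. Each of the 2 groups had 3 libraries, which the study describes as biological replicates of this single cell line.

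Restriction factors are proteins of the host cell that act on a virus itself, by binding its capsid, cutting or editing its RNA, withholding its building blocks or holding its particles at the cell surface. Most of them are present at a low level in resting cells and are made in larger amounts when interferon reaches the cell. Both groups here were transfected and no untransfected culture was sequenced, so the level in resting cells was not measured. Type I interferon acts through a complex of transcription factors that includes STAT2 and IRF9 and binds a DNA element called the interferon-stimulated response element (ISRE).

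The libraries held between 26650854 and 37321956 reads. TFAM itself was measured at 73.0 ± 2.97 CPM (SD, n = 3) in the control, where CPM is the read count scaled to the size of the library, and at 77.4 ± 5.58 (SD, n = 3) in the TFAM-OE libraries, and the groups overlapped (log2 fold change 0.08, SE 0.096, adjusted p = 0.623, edgeR's quasi-likelihood test). The TFAM mRNA count therefore did not show the label, and the second group is called the libraries labelled TFAM-OE below. For the overexpressed protein the study relied on a western blot with an antibody to the FLAG tag, which is not analysed here. The 5 epithelial markers (KRT7, KRT8, KRT18, KRT19 and CDH1) summed to between 5671 and 6321 CPM in the control and between 5298 and 6804 CPM in those labelled TFAM-OE, with 0 called. Of 5 markers of other cell types, PTPRC of blood cells had at most 1 read in a library, PECAM1 of endothelium at most 4 and COL3A1 of fibroblasts at most 7. CD68 of macrophages was measurable and fell from 3.25 to 1.39 CPM (log2 fold change -1.21, SE 0.235, adjusted p = 0.0152, edgeR's quasi-likelihood test). Those 5 markers summed to between 3.14 and 4.07 CPM in the control and between 1.17 and 1.84 CPM in those labelled TFAM-OE, and their part in the results below was not tested.

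The promoters of these genes were read first, because most of the 10 genes are known as interferon targets. The ISRE is an element through which type I interferon acts. RefSeq promoter windows (build GRCh38.p14, 250 bases before to 50 after an annotated start) were at hand for 9 of the 10 genes, in 16 windows. No window was at hand for MX2. The core of the ISRE was searched as GAAANNGAAA on both strands, and 5 of the 9 genes held it in at least 1 window: BST2, ISG20, EIF2AK2, MX1 and RSAD2. Over all genes with a window, 4.38% held it. The 9 genes had 16 windows, and all 27305 genes with a window had 35116, so shares per window are given too. The core was in 6 of the 16 windows, beside 3.57% of all windows. The stretches that hold the core are printed 5′ to 3′ on the strand given, with the matching bases in capitals.
BST2, chr19:17405721-17405780, minus strand, -150 to -91 from the start: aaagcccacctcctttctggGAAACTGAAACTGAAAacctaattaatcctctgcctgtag
ISG20, chr15:88638916-88638975, plus strand, -100 to -41 from the start: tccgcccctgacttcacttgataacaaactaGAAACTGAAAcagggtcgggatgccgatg
EIF2AK2, chr2:37156966-37156995, minus strand, -15 to 15 from the start: gtccaagggGAAAACGAAActgagaaccag
MX1, chr21:41420559-41420587, plus strand, 2 to 30 from the start: gagcagaaatGAAACCGAAActgaattgt
RSAD2, the second annotated start, chr2:6877607-6877666, plus strand: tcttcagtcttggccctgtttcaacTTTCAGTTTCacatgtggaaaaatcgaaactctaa
BST2 held the core in a pair of overlapping copies, and ISG20 and BST2 share the same 10 bases. The RSAD2 match lies on the other strand. MX1 held a further match at another annotated start. A second interferon element, searched as TTCNNNGAA on both strands (GAS), was held by 3 of the 9 genes (BST2, MX1 and ZC3HAV1) and by 9.38% of all genes. GAS was in 3 of the 16 windows, beside 7.66% of all windows. In BST2 one of its matches overlaps the ISRE core. An NF-kappaB element, searched as GGGANNTTCC on both strands, was held by 0 of the 9 genes and by 1.97% of all genes. It was in 1.61% of all windows.

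CMPK2 and RSAD2 lie head to head on chromosome 2, and their annotated spans overlap by 1079 bases. RefSeq gives CMPK2 3 starts, at 6866635, 6865907 and 6865819, and only the last leaves a gap, of 65 bases, to the first RSAD2 start at 6865885. That interval lies inside both annotated spans and between this pair of starts, and its bases that match the ISRE core with at most 1 mismatch are in capitals.
CMPK2-RSAD2 interval, chr2:6865820-6865884, plus strand: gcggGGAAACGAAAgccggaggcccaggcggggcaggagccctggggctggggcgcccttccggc
With 1 mismatch allowed, 8 of the 9 genes held the core, all but ADAR. The share over all genes was then 37.7%. By window it was 10 of 16, beside 33.0% of all windows. A match describes the letters of a window and is not a measured binding site.

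The transfected cultures labelled TFAM-OE had less mRNA of all 10 genes, and for each gene the lowest control library was above the highest library of the other group. Of all 16555 genes tested, 15.8% were lower with no overlap of the groups and 15.8% were higher. Calls needed a 2-fold change in either direction together with an adjusted p below 0.05. Of the 10 genes, 8 were called lower and 0 higher, beside 2.07% and 0.447% of all genes tested. The other two, ZC3HAV1 and ADAR, passed the adjusted p alone. By the adjusted p alone 10 of the 10 genes were lower and 0 higher, beside 4.81% and 3.48% of all genes. The 10 genes had a median log2 fold change of -2.24, and all genes tested had -0.01. Summed over the 10 genes, the control libraries held 1339, 1577 and 1495 CPM and the libraries labelled TFAM-OE held 534, 591 and 617 CPM. In whole-culture RNA, fewer cells that express a gene and less of its RNA in each cell cannot be told apart.

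**Figure D1:**
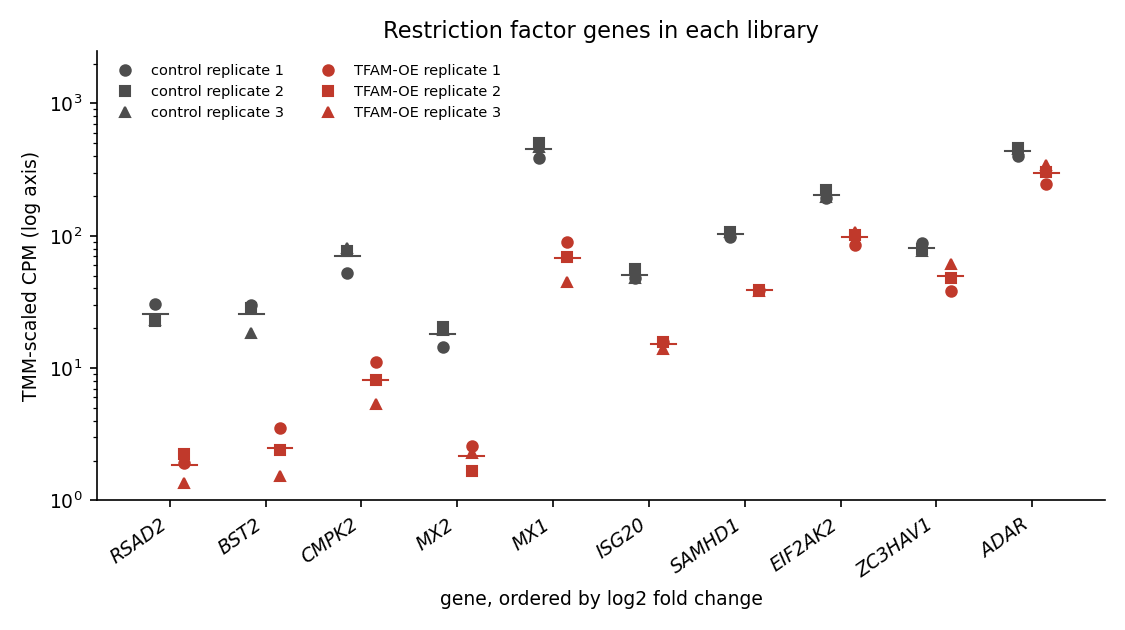
TMM-scaled CPM (log axis) of the 10 genes in each of the 6 libraries, ordered by log2 fold change, with grey for control, red for the libraries labelled TFAM-OE, a symbol for each replicate and a line at the group mean. The groups do not overlap for any of the 10 genes, and the gap narrows from RSAD2, 13.7-fold lower, to ADAR, 1.47-fold lower.

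MX1 and MX2 code for large dynamin-like GTPases that assemble around incoming viral nucleoprotein or capsids. MX1 is best known against influenza viruses, and MX2 against HIV-1 and herpesviruses. MX1 (ENSG00000157601.13, chr21:41420020-41470071, plus strand) was measured at 385, 505 and 472 CPM in the control libraries and at 90.1, 69.1 and 45.1 CPM in the libraries labelled TFAM-OE. The lowest control library stood 4.27-fold above the highest library labelled TFAM-OE, and within the second group replicate 3 was the lowest. MX1 fell 6.66-fold (log2 fold change -2.74, SE 0.224, 95% interval -3.24 to -2.24, adjusted p = 0.000113, edgeR's quasi-likelihood test).

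MX2 (ENSG00000183486.12, chr21:41361999-41409393, plus strand) starts upstream of MX1 on the same strand, with 10626 bases between the genes. It had 14.4, 20.3 and 19.6 CPM in the control and 2.57, 1.68 and 2.30 CPM in those labelled TFAM-OE. Control replicate 1 was the lowest of its group and still 5.61-fold above the highest library labelled TFAM-OE. MX2 fell 8.31-fold (log2 fold change -3.05, SE 0.204, 95% interval -3.51 to -2.60, adjusted p = 3.29e-05, edgeR's quasi-likelihood test). MX1 had 26.7, 24.9 and 24.1 reads for each MX2 read in the control and 35.01, 41.2 and 19.6 in those labelled TFAM-OE. These ratios overlapped, and the difference of the mean log2 ratio was 0.27 (SE 0.327, n = 3 and 3, exact two-sided permutation test, p = 0.4, adjusted p = 0.4 over 7 pairs), which does not show that the pair fell alike. Leaving out a library moved this difference to between 0.06 (without replicate 2 of the libraries labelled TFAM-OE) and 0.59 (without replicate 3). A long noncoding RNA gene, ENSG00000228318, overlaps MX1 by 4653 bases on the other strand. It had at most 251 reads and also fell, from 6.04 to 0.761 CPM (log2 fold change -2.97). Whether strand was used in counting is not given in the sources used here. Reads of that overlap can therefore not be assigned with certainty.

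RSAD2 codes for viperin, a radical SAM enzyme that turns the nucleotide CTP into a chain terminator of viral RNA polymerases. CMPK2, a mitochondrial nucleotide kinase, makes CTP from CDP. RSAD2 (ENSG00000134321.11, chr2:6865557-6898239, plus strand) was measured at 30.6, 22.8 and 23.2 CPM in the control and at 1.91, 2.26 and 1.37 CPM in those labelled TFAM-OE. The lowest control value was 10.1-fold above the highest value of the other group, the widest gap of the 10 genes. RSAD2 fell 13.7-fold (log2 fold change -3.78, SE 0.206, 95% interval -4.24 to -3.32, adjusted p = 1.76e-05, edgeR's quasi-likelihood test), and 6 of the 16555 genes tested had a lower log2 fold change. Its 3 libraries labelled TFAM-OE held 61, 82 and 41 reads, and 41 is the smallest count of any of the 10 genes in any library.

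CMPK2 (ENSG00000134326.11, chr2:6840570-6866635, minus strand) had 52.1, 77.3 and 80.9 CPM in the control and 11.04, 8.17 and 5.37 CPM in those labelled TFAM-OE. Control replicate 1 was the lowest of its group for CMPK2 and the highest for RSAD2. CMPK2 fell 8.54-fold (log2 fold change -3.09, SE 0.255, 95% interval -3.66 to -2.53, adjusted p = 0.000113, edgeR's quasi-likelihood test). RSAD2 had 0.586, 0.295 and 0.287 reads for each CMPK2 read in the control and 0.173, 0.276 and 0.255 in those labelled TFAM-OE. The ratios did not overlap, but control replicates 2 and 3 lay close to replicates 2 and 3 of the other group, and the difference was -0.67 on the log2 scale (SE 0.396, n = 3 and 3, exact two-sided permutation test, p = 0.1, adjusted p = 0.117 over 7 pairs). A p of 0.1 is the smallest that 3 against 3 libraries can give. Without control replicate 1 the difference was -0.34, and with other libraries left out it was as low as -0.85. The overlap of the spans is on opposite strands, so the counts of RSAD2 and CMPK2 may share reads there.

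BST2 codes for tetherin, a membrane protein that holds budding enveloped viruses at the cell surface. BST2 (ENSG00000130303.12, chr19:17402939-17405630, minus strand) was measured at 30.2, 28.5 and 18.4 CPM in the control and at 3.55, 2.39 and 1.53 CPM in those labelled TFAM-OE. Replicate 3 was the lowest library of both groups, and the groups were 5.19-fold apart at their nearest libraries. BST2 fell 10.3-fold (log2 fold change -3.36, SE 0.288, 95% interval -4.004 to -2.72, adjusted p = 0.00014, edgeR's quasi-likelihood test). Its standard error was the widest of the 10 genes, and so was its coefficient of variation in both groups, 24.9% in the control and 40.5% in those labelled TFAM-OE.

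SAMHD1 and ISG20 act on nucleotides and nucleic acids. SAMHD1 breaks down deoxynucleotides and so limits reverse transcription of retroviruses. SAMHD1 (ENSG00000101347.8, chr20:36890229-36951893, minus strand) was measured at 97.1, 107 and 107 CPM in the control and at 38.9, 39.0 and 38.3 CPM in those labelled TFAM-OE. Of the 10 genes it had the smallest coefficient of variation in each group, 5.58% and 1.06%. SAMHD1 fell 2.68-fold (log2 fold change -1.42, SE 0.093, 95% interval -1.63 to -1.22, adjusted p = 3.08e-05, edgeR's quasi-likelihood test). Its overlap with TLDC2 on the other strand covers 4007 bases, and TLDC2 had at most 21 reads.

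ISG20 is an exonuclease that degrades single-stranded RNA. ISG20 (ENSG00000172183.14, chr15:88635670-88656483, plus strand) had 48.002, 56.5 and 48.001 CPM in the control and 15.8, 15.7 and 13.9 CPM in those labelled TFAM-OE. The 3 libraries of each group lay close together, with 3.04-fold between the nearest libraries of the groups. ISG20 fell 3.36-fold (log2 fold change -1.75, SE 0.118, 95% interval -2.01 to -1.49, adjusted p = 3.29e-05, edgeR's quasi-likelihood test).

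EIF2AK2, ZC3HAV1 and ADAR bind viral RNA, and they fell the least of the 10 genes. EIF2AK2 codes for PKR, a kinase that is switched on by double-stranded RNA and stops translation by phosphorylating eIF2alpha. EIF2AK2 (ENSG00000055332.16, chr2:37099210-37157522, minus strand) was measured at 194, 221 and 196 CPM in the control and at 85.9, 101 and 106 CPM in those labelled TFAM-OE. The nearest libraries of the groups were 1.82-fold apart. EIF2AK2 fell 2.08-fold (log2 fold change -1.06, SE 0.11, 95% interval -1.30 to -0.81, adjusted p = 0.000501, edgeR's quasi-likelihood test). This value lies next to the fold threshold, and the gene was no longer called without control replicate 2 (log2 fold change -0.99) or without replicate 1 of the libraries labelled TFAM-OE (-0.97), while its adjusted p stayed below 0.05.

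ZC3HAV1 codes for ZAP, which binds CpG-rich viral RNA and directs its decay. ZC3HAV1 (ENSG00000105939.12, chr7:139043515-139132122, minus strand) had 87.8, 78.9 and 77.3 CPM in the control and 38.2, 48.2 and 61.7 CPM in those labelled TFAM-OE. Replicate 3 of the second group came within 1.25-fold of the lowest control library. The gene was 1.65-fold lower (log2 fold change -0.72, SE 0.157, 95% interval -1.07 to -0.37, adjusted p = 0.0238, edgeR's quasi-likelihood test) and was not called. Its adjusted p was 0.128 without control replicate 1, 0.0964 without control replicate 2 and 0.109 without replicate 2 of the libraries labelled TFAM-OE.

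ADAR edits adenosine to inosine in double-stranded RNA and keeps the cell's own RNA from setting off RNA sensors. ADAR (ENSG00000160710.15, chr1:154581695-154628013, minus strand) was measured at 400, 459 and 453 CPM in the control and at 246, 304 and 341 CPM in those labelled TFAM-OE. The groups were 1.17-fold apart at their nearest libraries, the narrowest gap of the 10 genes. The gene was 1.47-fold lower (log2 fold change -0.56, SE 0.128, 95% interval -0.84 to -0.28, adjusted p = 0.0279, edgeR's quasi-likelihood test) and was not called. Leaving out any control library, or replicate 2 of the second group, gave an adjusted p between 0.0705 and 0.132. ADAR has an interferon-induced and a constitutive isoform, and ZC3HAV1 a long and a short one, which counts per gene do not separate.

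The 10 genes did not fall by the same amount. Ordered by log2 fold change, RSAD2, BST2, CMPK2, MX2 and MX1 came first, at 6.66-fold to 13.7-fold lower. The ratios of neighbours in this order overlapped between the groups for 6 of 9 adjacent pairs, including the 4 adjacent pairs among these leading genes. The step from MX1 to ISG20 was the largest, a difference of -1.04 in log2 fold change (SE 0.248). ISG20 to SAMHD1 (-0.33, SE 0.085) and SAMHD1 to EIF2AK2 (-0.36, SE 0.11) also did not overlap. Each of these steps had an exact two-sided permutation p of 0.1, the smallest possible, and an adjusted p of 0.3 over the 9 pairs. The order was taken from these same libraries, so the sign of each step was set beforehand. These p-values therefore do not test the order or the choice of the largest step.

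MX1 led the 10 genes in the control and ADAR in the other group by FPKM, but ADAR led in both groups by CPM per kilobase of all annotated GENCODE exons (35.75 for ADAR and 25.24 for MX1 in the control). Levels were read from the deposited FPKM, which scales fragments to transcript length and library size. In the control, MX1 had 95.8 ± 11.2 FPKM (SD, n = 3) and led, ahead of ADAR at 55.4 ± 2.87. In the libraries labelled TFAM-OE, ADAR led at 37.3 ± 7.87 and MX1 followed at 14.0 ± 3.97. MX1 and ADAR did not overlap in FPKM in either group. MX1 supplied 28.7%, 32.0% and 31.6% of the 10 genes' CPM in the control and 16.9%, 11.7% and 7.32% in those labelled TFAM-OE, whereas the share of ADAR was 29.9%, 29.1% and 30.3% in the control and 46.1%, 51.4% and 55.3% in the other group.

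Below these, BST2 (21.6 FPKM), ISG20 (20.2), SAMHD1 (18.5), EIF2AK2 (16.9) and CMPK2 (15.2) formed a run in the control in which each gene overlapped the next. ZC3HAV1 (8.44 FPKM) stood apart from its neighbours, and RSAD2 (6.21) and MX2 (5.07) overlapped at the bottom. In the libraries labelled TFAM-OE, EIF2AK2 (8.02 FPKM) and SAMHD1 (6.81) overlapped, as did ISG20 (5.91) and ZC3HAV1 (5.08). BST2 (2.03 FPKM) and CMPK2 (1.74) overlapped too, and MX2 (0.603) and RSAD2 (0.44) were again the lowest. Among 17080 protein-coding genes, BST2 moved from percentile 85.2 of mean FPKM in the control to percentile 47.2, and ADAR from 94.1 to 91.0. In the control the 10 genes lay between percentile 61.5 (MX2) and percentile 96.8 (MX1). The order rests on the lengths the authors used. With CPM per kilobase of all annotated GENCODE exons, 3 of the 10 genes kept their rank in the control and 2 in the other group.

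The libraries labelled TFAM-OE also differed among themselves, and the direction was not the same for all of the 10 genes. Replicate 1 was the highest of that group for BST2, CMPK2, MX2, MX1 and ISG20, and replicate 3 was the highest for EIF2AK2, ZC3HAV1 and ADAR. For RSAD2 and SAMHD1 replicate 2 was the highest. Antiviral genes outside the 10 differed too. In replicates 1, 2 and 3 of that group FPKM was 347, 215 and 157 for IFI6 and 8.91, 6.67 and 4.74 for OASL. For DDX60 it rose, at 0.61, 0.88 and 1.03. From replicate 1 to replicate 3 the log2 ratio of CPM was -1.21 for BST2, -1.04 for CMPK2 and -0.997 for MX1, and 0.31 for EIF2AK2, 0.47 for ADAR and 0.69 for ZC3HAV1. The length implied by the counts and the FPKM was 1.20 kb for BST2, 4.62 kb for CMPK2 and 4.76 kb for MX1, against 12.1 kb for EIF2AK2, 7.94 kb for ADAR and 9.71 kb for ZC3HAV1. SAMHD1, at 5.64 kb, had a log2 ratio of -0.02. ISG20 (2.53 kb), MX2 (3.59 kb) and RSAD2 (4.15 kb) are shorter than CMPK2 and MX1 and had log2 ratios of -0.19, -0.16 and -0.49.

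The same ratio moved with length across the other genes. Over 10933 genes with an FPKM of at least 1 in every library, cut into 3 equal groups by length, its median was -0.30 in the shortest group, -0.10 in the middle group and 0.25 in the longest. By their lengths BST2 and ISG20 belong with the shortest group, and MX2, RSAD2, CMPK2 and MX1 with the middle group. ISG20 (-0.19) and MX2 (-0.16) lay near these medians, whereas BST2 (-1.21), CMPK2 (-1.04) and MX1 (-0.997) lay well below them. SAMHD1, EIF2AK2, ADAR and ZC3HAV1 belong with the longest group, in which 70.0% of genes were higher in replicate 3 than in replicate 1. EIF2AK2 (0.31) lay near the median of that group, ADAR (0.47) and ZC3HAV1 (0.69) above it and SAMHD1 (-0.02) below it. The median log2 fold change between the study's groups was 0.07, 0.03 and -0.03 from the shortest to the longest group. The part of length in the values of the 10 genes was not tested.

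**Figure D2:**
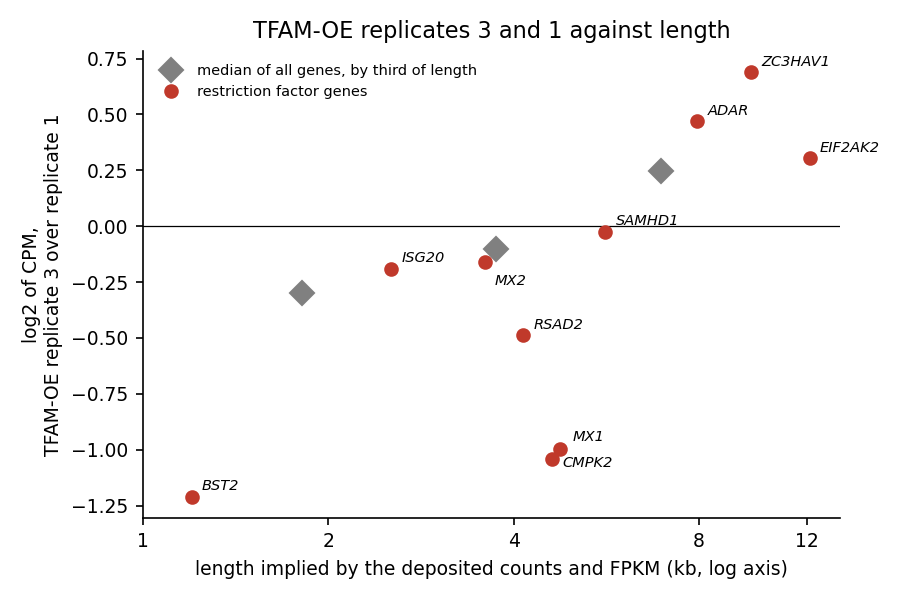
The log2 ratio of CPM in replicate 3 over replicate 1 of the libraries labelled TFAM-OE, against the length in kb implied by the deposited counts and FPKM (log axis), with red points for the 10 genes and grey diamonds for the medians of all genes in 3 equal groups by length. EIF2AK2, ADAR and ZC3HAV1, the longest of the 10, lie above 0, at 0.31 to 0.69, and BST2, the shortest, lies lowest at -1.21.

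To see whether the enzymes of the same kind moved too, 21 relatives in sequence or enzyme class were set beside the restriction factors. Of these, 0 were called in either direction, beside 2.07% lower and 0.447% higher of all genes tested. At those shares 0 calls among 21 genes does not set the relatives apart from other genes. Their median log2 fold change was 0.02. CMPK1, the cytosolic UMP and CMP kinase, had 103 CPM in the control and 97.2 in those labelled TFAM-OE (log2 fold change -0.08, SE 0.1, adjusted p = 0.656, edgeR's quasi-likelihood test). EIF2AK1, the heme-regulated eIF2alpha kinase, had 106 and 131 CPM (0.30, SE 0.106, adjusted p = 0.114, edgeR's quasi-likelihood test). The mitochondrial and membrane dynamins DNM1, DNM2, DNM3, DNM1L and OPA1 had log2 fold changes between -0.10 and 0.23. AEN, a nuclease related to ISG20, was the relative with the lowest value (log2 fold change -0.65, SE 0.137, adjusted p = 0.021, edgeR's quasi-likelihood test) and the only one of the 21 that passed the adjusted p.

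**Figure D3:**
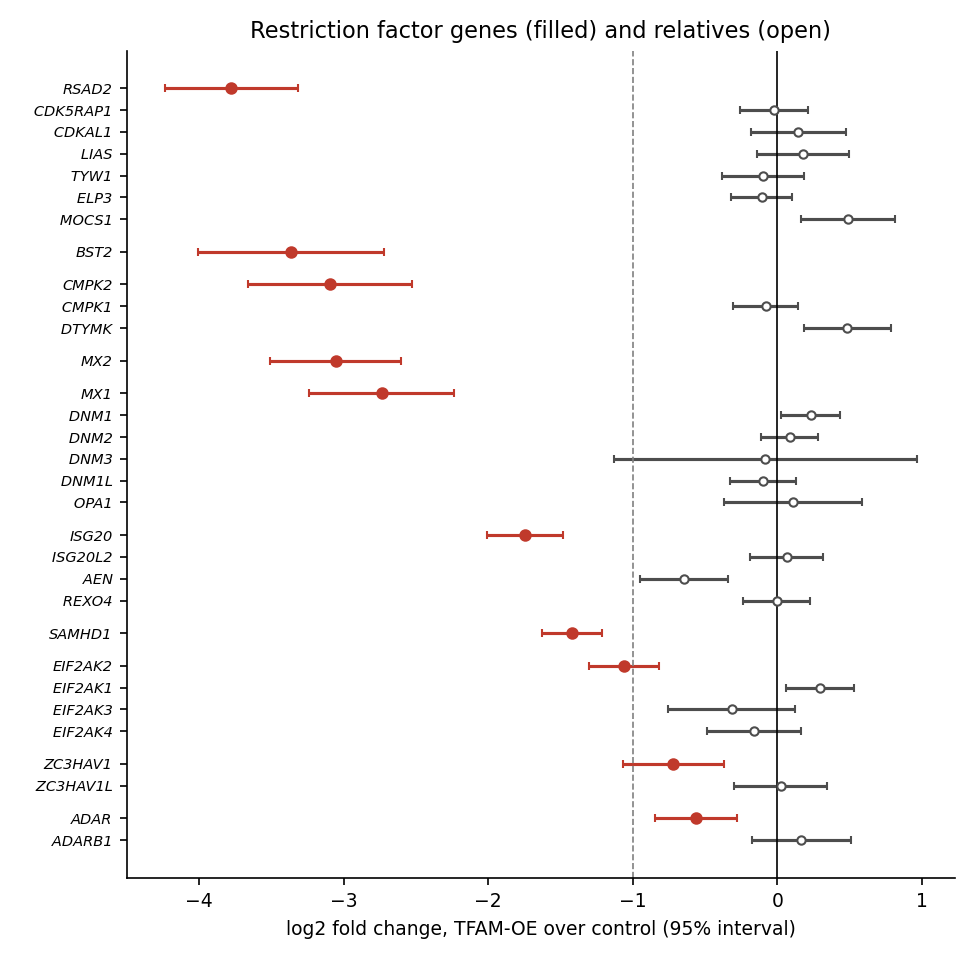
Log2 fold change of the libraries labelled TFAM-OE over the control with its 95% interval, for the 10 genes (filled red) and the relatives (open). Relatives are drawn under the gene they belong with, the dynamins under MX1 alone. MX2, BST2 and SAMHD1 have none drawn under them. The dashed line marks a fall by 2-fold. The 8 called genes lie to the left of the dashed line, ZC3HAV1 and ADAR between it and 0, and the relatives lie between -0.65 and 0.49.

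The ratio of a gene to its relative within a library does not depend on the scaling between libraries. EIF2AK2 had 1.87, 2.12 and 1.75 reads for each EIF2AK1 read in the control and 0.720, 0.809 and 0.715 in those labelled TFAM-OE, a difference of -1.35 on the log2 scale (SE 0.101). ISG20 over ISG20L2 fell from 0.726 to 0.208 (geometric means, log2 difference -1.81, SE 0.0953). CMPK2 over CMPK1 fell from 0.670 to 0.0810 (log2 difference -3.05, SE 0.448). The groups did not overlap in any of these, and every library labelled TFAM-OE was below every control library.

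ADAR and ZC3HAV1, which were not called on their own, were also lower against their relatives. ADAR over ADARB1, a second editing enzyme, went from 116 to 69.1 (log2 difference -0.75, SE 0.193). ADARB1 had 92 to 157 reads in a library and itself had a log2 fold change of 0.17 (SE 0.154). ZC3HAV1 over ZC3HAV1L, a shorter relative 7472 bases away on chromosome 7, had ratios of 13.8, 13.2 and 13.7 in the control and 7.09, 7.68 and 9.35 in those labelled TFAM-OE (log2 difference -0.76, SE 0.120). Each of these 5 ratios did not overlap between the groups and had an exact two-sided permutation p of 0.1, the smallest possible, and an adjusted p of 0.117 over the 7 pairs. The ratios reuse the counts of the restriction factors given above, so they are not separate evidence that these genes were lower.

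**Figure D4:**
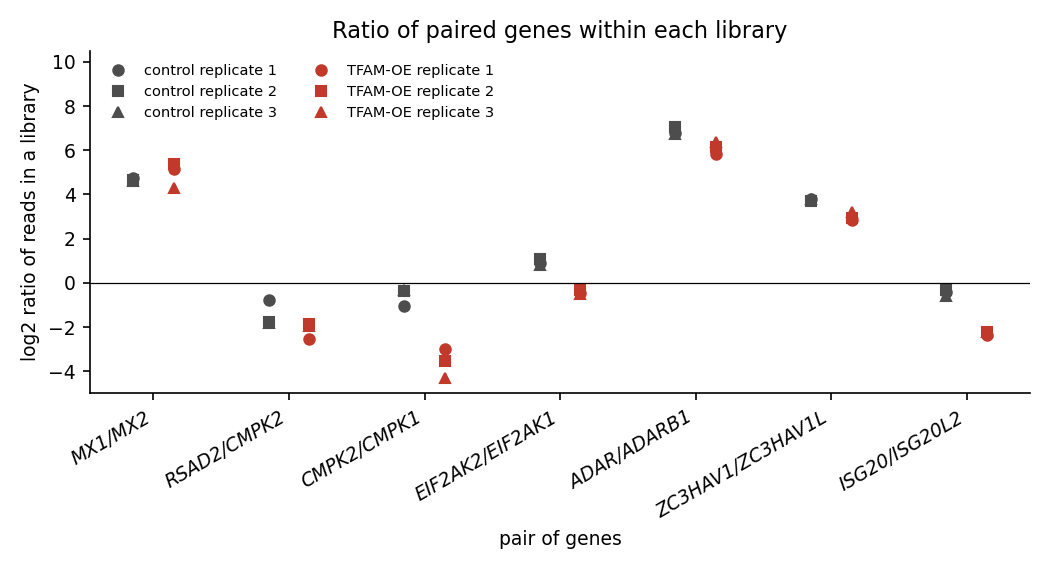
The log2 ratio of reads of paired genes in each library, with grey for control, red for the libraries labelled TFAM-OE and a symbol for each replicate. The groups overlap for MX1/MX2 and for no other pair, and CMPK2/CMPK1 shows the largest difference, -3.05.

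A list of 49 other restriction factors and antiviral effectors was read in the same way. Of these 47 were tested, and 29 (61.7%) were called lower and 0 higher, beside 2.07% and 0.447% of all genes tested. Their median log2 fold change was -1.18. IFITM1, which blocks fusion of enveloped viruses, fell from 35.1 to 3.09 CPM (log2 fold change -3.51, SE 0.206), and OAS2, a sensor of double-stranded RNA, from 116 to 10.6 CPM (-3.45, SE 0.190). SP100 of the nuclear PML bodies fell less (-1.18, SE 0.0940). Factors that were not called included TRIM5, which binds retroviral capsids (-0.89, SE 0.102, adjusted p = 0.00117, edgeR's quasi-likelihood test), and APOBEC3C, a cytidine deaminase (0.11, SE 0.108). APOBEC3G and APOBEC3H had at most 7 and 6 reads in a library and were not tested.

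Among 25 tested partners, substrates and regulators, 3 were called lower and 0 higher, and the median was 0.04. The called genes were the viral RNA sensors IFIH1 (log2 fold change -2.20, SE 0.104) and DDX58, now named RIGI (-2.04, SE 0.114), and PPP1R15A (-1.57, SE 0.207), which recruits the phosphatase that reverses the action of PKR on eIF2alpha. EIF2S1, the eIF2alpha subunit that PKR phosphorylates, had a log2 fold change of -0.11 (SE 0.0879). KHNYN, a nuclease that works with ZAP, had -0.08 (SE 0.107), while the ZAP cofactor TRIM25 passed the adjusted p alone (-0.67, SE 0.0917, adjusted p = 0.00307, edgeR's quasi-likelihood test). The SAMHD1 kinase partners CDK2 and CCNA2 had 0.37 and 0.43, of which CCNA2 passed the adjusted p (0.0265, edgeR's quasi-likelihood test). RRM1 and RRM2, which make the deoxynucleotides that SAMHD1 removes, had 0.31 and 0.36 and did not pass it.

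Of the interferon transcription factors, 5 of 6 were tested and 3 were called lower, beside 2.07% of all genes tested. The count was 2 without control replicate 2, control replicate 3 or replicate 3 of the libraries labelled TFAM-OE, and with the replicate number as a block. IRF7 fell from 140.4 to 36.9 CPM (log2 fold change -1.93, SE 0.228, adjusted p = 0.00132, edgeR's quasi-likelihood test), and STAT2 from 53.4 to 26.3 CPM (-1.02, SE 0.159, adjusted p = 0.00552). IRF1 passed the adjusted p alone (-0.61, adjusted p = 0.024, edgeR's quasi-likelihood test), and IRF3 did not pass it (0.29). IRF9 had at most 5 reads in a library and was not tested.

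**Figure D5:**
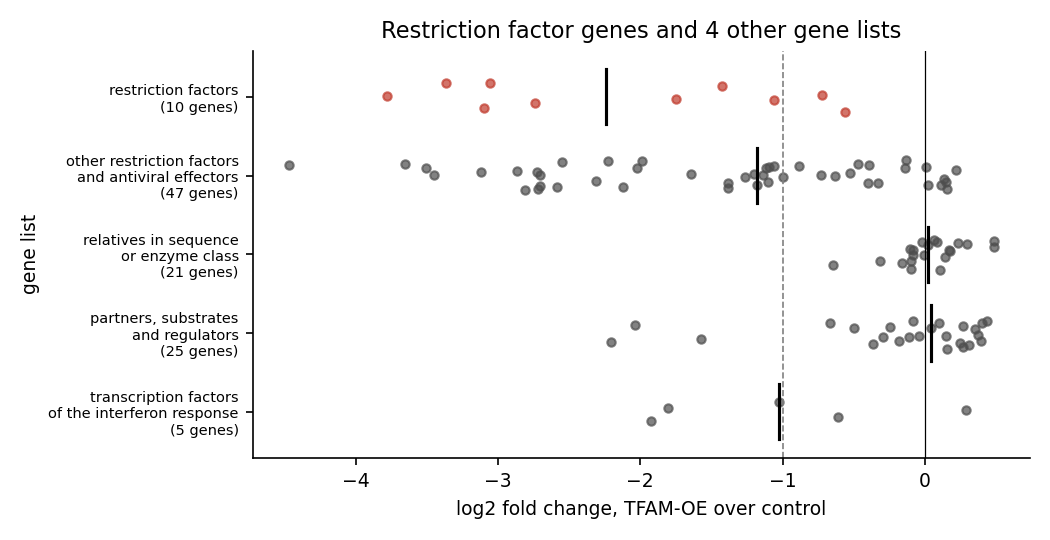
Log2 fold change of the libraries labelled TFAM-OE over the control for each tested gene of the 10 restriction factors (red) and of 4 other gene lists (grey), with a black bar at each median; the dashed line marks a fall by 2-fold. The medians are -2.24 for the 10 genes, -1.18 for the other restriction factors, 0.02 for the relatives, 0.04 for the partners and -1.02 for the transcription factors.

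The nearest protein-coding gene on each side of the 10 genes gave 16 genes that are not among the 10. Of these 9 could be tested and 0 were called, beside 2.07% lower and 0.447% higher of all genes tested. At those shares 0 calls among 9 genes does not set the neighbours apart from other genes. Their median log2 fold change was 0.02. AEN, 3388 bases from ISG20, is the relative above that passed the adjusted p alone. MVB12A lies 91 bases from BST2 and was measured at 26.9 CPM in the control and 34.6 CPM in those labelled TFAM-OE (log2 fold change 0.36, SE 0.164, adjusted p = 0.2, edgeR's quasi-likelihood test). GPATCH11 overlaps EIF2AK2 by 35 bases and had 0.41 (SE 0.142, adjusted p = 0.104, edgeR's quasi-likelihood test). TLDC2, with under 1 CPM, had the lowest value of the 9 (-1.004, SE 0.380, adjusted p = 0.132, edgeR's quasi-likelihood test). The pairs MX1 with MX2 and RSAD2 with CMPK2 were the neighbours that were both called.

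The genes whose pattern over the 6 libraries was most like the mean of the 10 genes were ranked by Pearson's r among 13968 others, as a description only. PCDHB2 (r = 0.9991), SAMD9L (0.9986), IFIH1 (0.9982) and ARMCX5 (0.9973) were among the 5 that led. SAMD9L fell from 21.9 to 4.51 CPM, whereas PCDHB2 and ARMCX5 had log2 fold changes of -0.28 and -0.30 and were not called. The likeness follows the shape over libraries and not the size of the change, and the 6 points share the difference between the groups.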

How the data were processed

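Poly(A) RNA from A549 cultures gave 6 libraries, 3 per group, grouped by their labels. The authors aligned reads with TopHat2 (per the labels) and deposited raw counts of reads per gene and FPKM values with 2 decimals for each library. How genes were counted (program, annotation, strand) is not given in the sources used here. Libraries sum to 26650854 to 37321956 counts. Reads carry no molecular identifiers, so depth limits only the counting error.

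The deposited counts were tested in R (4.3.3) with edgeR's quasi-likelihood test (4.0.16) as a two-sided test with TMM scaling and Benjamini-Hochberg adjustment over the 16555 genes that filterByExpr kept of 29845. Log2 fold changes are the libraries labelled TFAM-OE over the control, and CPM values are TMM-scaled. The filter was set because, with every gene that had a read, an earlier fit of these data gave a spread common to genes of like abundance. Replicates differed by 8.06 to 62.0 in chi-square per degree of freedom, above sampling noise, so each library counts once. The p-values measure the spread between these libraries. FPKM was used for levels per length and with 0.1 or 1 added in limma (3.58.1). Ratios within a library were compared by exact two-sided permutation tests in Python (3.11.15) with scipy (1.17.1). Coordinates are GRCh38 from GENCODE version 44, and promoter windows are from RefSeq. Figures were drawn with matplotlib (3.10.9).

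The genes named are the 10 restriction factors, TFAM, 7 pairs, 6 lists, the nearest protein-coding neighbours and the 5 genes most like the 10 genes' mean. Some genes that this rule names are counted in their lists but not reported here by name. The 10 genes and the lists were chosen with earlier results of these data known. Alternatives were RLE, upper-quartile and library-size scaling, other filters, limma-voom, limma-trend on FPKM, DESeq2 (1.42.0), the exact test of edgeR, each library left out, a block for the replicate number and the adjusted p with no fold threshold.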

Additional observations from a re-analysis of the deposited data

How the results depend on the processing

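Each of the 10 genes kept a negative log2 fold change under all 18 alternatives, and 8 were called lower in all but 4 settings. EIF2AK2 missed the fold threshold in 3 of them, so that 7 were called with limma-trend on log2(FPKM + 1) (EIF2AK2 -0.9971) and 7 to 8 with a library left out. With the adjusted p alone 10 passed. For all genes, 342 were called lower and 74 higher, against 528 and 129 with every gene that had a read. Limma-trend gave 205 and 31 on log2(FPKM + 0.1) with FPKM above 1, 108 and 11 with 1 added, and 181 and 32 with FPKM above 0. The adjusted p alone gave 796 and 576, and leaving out a library gave 183 to 448 lower and 21 to 113 higher. The causes of these shifts were not tested. ADAR and ZC3HAV1 passed the adjusted p in the first fit but not with limma-trend on FPKM above 0 (0.111 and 0.126), nor ZC3HAV1 with library-size scaling (0.0547). Same-numbered replicates did not deviate together (r = -0.342, 0.0567 and -0.407). Control replicate 1 with TFAM-OE replicate 3 had r = 0.382, and control replicate 3 with TFAM-OE replicate 1 had 0.385. Deviations from a group mean of 3 libraries cancel within the group, so r cannot show whether same-numbered cultures were handled together. The main fit did not pair the libraries. With the replicate block 217 genes were called lower and 38 higher, the 8 calls held, and ADAR and ZC3HAV1 had an adjusted p of 0.07 and 0.0914. Scalings moved the median of all genes to between -0.0304 and -0.00182 in log2. Allowing 1 mismatch raised the genes with an ISRE core from 5 to 8. None of these results changed direction. Depth limits the lowest counts, down to 41 reads for RSAD2 in 1 library. The interferon transcription factors called lower numbered 2 in place of 3 with limma-trend on log2(FPKM + 1).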
